A study of Homo sapiens with 6 samples.

Results

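The proteasome genes of HepG2 cells are described here, chosen as the protein-coding genes whose GENCODE 29 symbol begins with PSM, a letter from A to G and a number. The rule matched 49 of the 60483 gene identifiers in the deposited count tables. Of these, 48 are subunits, activators, an inhibitor or assembly chaperones of the proteasome. The remaining gene, PSMC3IP, is a meiotic recombination factor that matched by its symbol and belongs to none of these classes. HepG2 is an established human hepatocellular carcinoma line, used at passages 16 to 19. Its cells were transfected either with a control siRNA or with an siRNA against FTO, a demethylase of N6-methyladenosine in RNA, and total RNA was sequenced from 3 libraries of each group. The sources used here do not give the siRNA sequences, their dose or the time to harvest. They also do not say whether replicate libraries were separate cultures, so the p-values reflect only the variation among these samples, and that variation may be technical.

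Total counts lay between 15713279 and 18390953 per library. FTO itself (ENSG00000140718.17, chromosome 16) stood at 40.7, 37.9 and 38.7 CPM (counts scaled to library size and composition) in the controls and at 11.2, 14.4 and 5.20 CPM after FTO siRNA, lower in every FTO siRNA library than in any control, as labelled. All 10 hepatocyte markers were expressed, with a summed level of 23197 to 33372 CPM in the controls and 15858 to 28202 CPM after FTO siRNA. None of the 10 was called with all libraries. APOB and HNF4A were lower in every FTO siRNA library than in any control, as were 17.4% of all genes tested, and the other markers overlapped. Without FTO siRNA 3 the markers ALB, APOA1, APOB, FGB, TF and AHSG, 6 of the 10, were called lower, against 14.1% of all genes then tested. APOB, with a log2 fold change of -1.89, was the furthest. Among the FTO siRNA libraries, number 3 stood apart from 1 and 2 for most proteasome genes. Values without it are given for the counts of calls, the sums and ratios, and the genes it moves most.

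The proteasome degrades proteins that carry ubiquitin chains. Its 20S core is a barrel of stacked rings: the alpha subunits (PSMA genes) form the gated ends, and the beta subunits (PSMB genes) the inner rings, with the protease sites on PSMB5, PSMB6 and PSMB7. The 19S particle (PSMC and PSMD genes) caps the barrel, binds ubiquitin chains and unfolds the substrate with its PSMC ATPases. Under interferon, and constitutively in immune cells, the catalytic subunits are replaced by PSMB8, PSMB9 and PSMB10, which form the immunoproteasome and favour peptides that fit class I molecules.

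Of the 49 genes, 47 had enough counts to be tested, and 2 passed at an adjusted p under 0.05 in edgeR's quasi-likelihood test with Benjamini-Hochberg adjustment over all genes. Both were inducible beta subunits, PSMB8 and PSMB9, and both rose. This is 4.26% of the members tested, against 11.4% of all 15025 genes tested (7.53% higher, 3.83% lower), so the share called among proteasome genes was below the background. Every control count of PSMB8 and PSMB9 was below the filter minimum of 10. Both entered the test only through the FTO siRNA libraries, where they were high, so their calls rest in part on that selection. DESeq2 and limma-voom each also called 2 members higher and 0 lower, where over all genes DESeq2 called 9.85% higher and 6.85% lower and limma-voom 6.72% and 3.75%. At an unadjusted edgeR p under 0.05, 2 members passed, 0 of them lower, against 27.9% of all genes tested in both directions. The median log2 fold change, FTO siRNA against control siRNA, was -0.03 over the members tested and 0.04 over all genes tested. The groups did not overlap for 5 members, 2 higher and 3 lower (10.6% of those tested, against 36.6% of all genes).

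**Figure D1:**
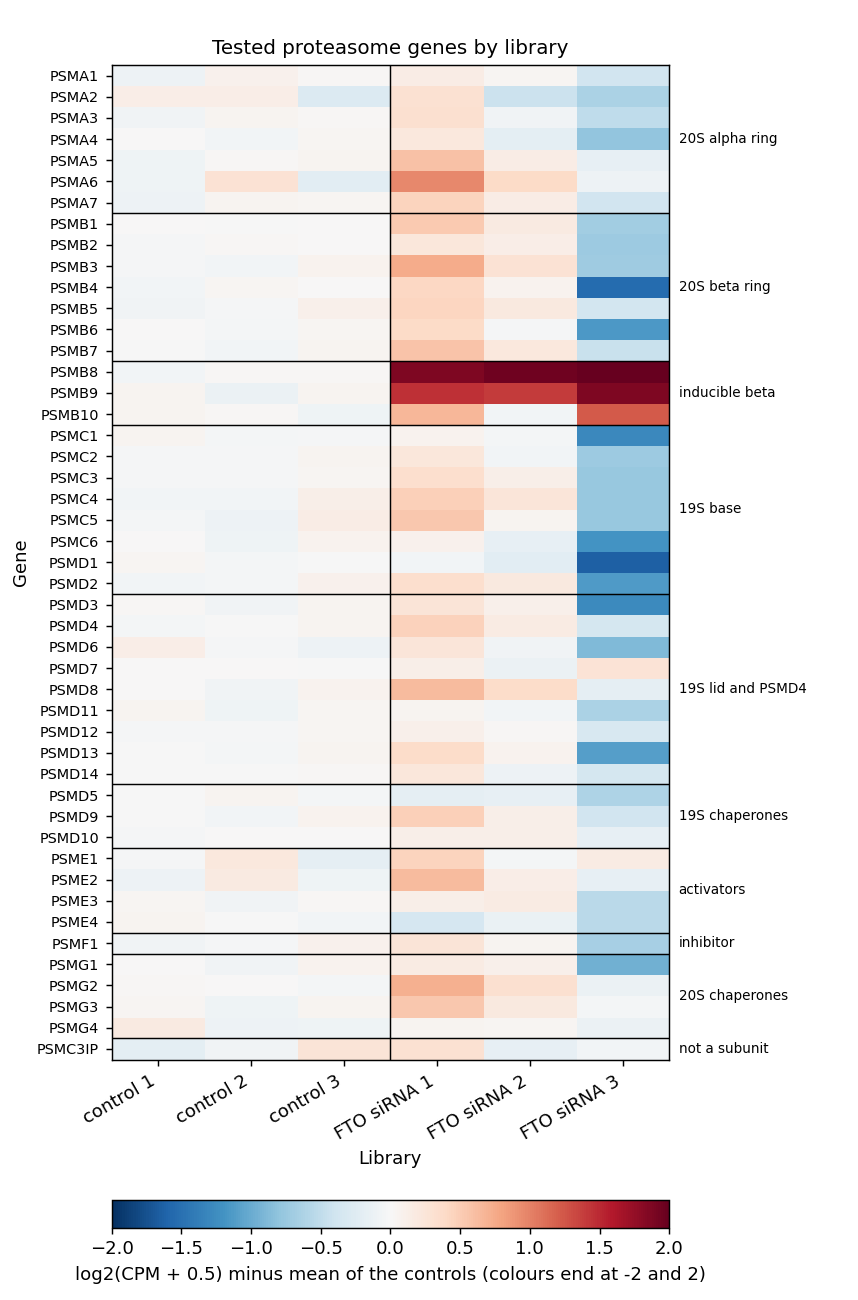
Each row is one of the 47 tested genes and each column a library. Colour gives log2(CPM + 0.5) minus the mean of the 3 controls (blue lower, red higher, ending at -2 and 2), and lines separate the classes. PSMB8 and PSMB9 are red in all 3 FTO siRNA libraries, while most other genes are pale red in FTO siRNA 1 and blue in FTO siRNA 3.

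The inducible subunits came from very low control levels. PSMB8 (ENSG00000204264.7, chromosome 6), which takes the place of PSMB5, had 5, 6 and 6 counts in the controls and 42, 45 and 66 counts after FTO siRNA. In CPM this was 0.316, 0.365 and 0.362 against 2.60, 2.77 and 3.36. Every FTO siRNA library was above every control. The log2 fold change was 3.04 ± 0.33 (standard error, n = 3 per group, edgeR adjusted p = 0.00233), and without FTO siRNA 3 it was 2.89 ± 0.34 (adjusted p = 0.000708). PSMB9 (ENSG00000240065.6, chromosome 6), which takes the place of PSMB6, had 1, 0 and 1 counts in the controls and 16, 15 and 29 counts after FTO siRNA. Its groups did not overlap either. Over the summed 2 and 60 counts the ratio of CPM was 28.2, with an exact 95% binomial counting interval of 7.46 to 238, which covers counting error only (edgeR adjusted p = 0.00233). PSMB10 (ENSG00000205220.10, chromosome 16), which takes the place of PSMB7, stood at 1.58, 1.52 and 1.39 CPM in the controls and at 2.66, 1.42 and 4.18 CPM after FTO siRNA. FTO siRNA 2 lay within the control range, and the difference did not pass (log2 fold change 0.90 ± 0.40, edgeR adjusted p = 0.184, and 0.42 ± 0.33 with adjusted p = 0.361 without FTO siRNA 3). FTO siRNA 3 was the highest library for PSMB8, PSMB9 and PSMB10.

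The start regions of these genes are printed because the inducible subunits are known interferon targets, and interferon signalling acts through the interferon-stimulated response element (ISRE, searched on both strands as GAAA, any 2 bases and GAAA) and the gamma-activated site (GAS, searched as TTCNNNGAA, which reads the same on both strands). Each sequence is the RefSeq window of 250 bases before to 50 bases after an annotated start on GRCh38.p14, read 5′ to 3′ along the gene, and capitals mark the matches. The windows are PSMB8 (chr6:32843998-32844297, minus strand), PSMB9 (chr6:32853942-32854241, plus strand), PSMB10 (chr16:67936801-67937100, minus strand) and, for comparison, the constitutive PSMB5 (chr14:23034851-23035150, minus strand).
PSMB8: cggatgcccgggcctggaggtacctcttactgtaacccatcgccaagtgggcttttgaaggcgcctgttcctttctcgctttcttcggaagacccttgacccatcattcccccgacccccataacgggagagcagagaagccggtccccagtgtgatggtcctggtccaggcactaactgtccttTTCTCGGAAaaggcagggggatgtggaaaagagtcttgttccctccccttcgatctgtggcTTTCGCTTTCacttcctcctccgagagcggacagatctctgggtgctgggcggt
PSMB9: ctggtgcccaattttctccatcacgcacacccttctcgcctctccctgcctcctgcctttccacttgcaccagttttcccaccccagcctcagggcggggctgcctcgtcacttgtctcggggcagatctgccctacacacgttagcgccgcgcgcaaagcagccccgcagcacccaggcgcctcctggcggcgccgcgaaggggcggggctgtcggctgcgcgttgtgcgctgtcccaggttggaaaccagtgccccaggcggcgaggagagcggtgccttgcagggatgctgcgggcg
PSMB10: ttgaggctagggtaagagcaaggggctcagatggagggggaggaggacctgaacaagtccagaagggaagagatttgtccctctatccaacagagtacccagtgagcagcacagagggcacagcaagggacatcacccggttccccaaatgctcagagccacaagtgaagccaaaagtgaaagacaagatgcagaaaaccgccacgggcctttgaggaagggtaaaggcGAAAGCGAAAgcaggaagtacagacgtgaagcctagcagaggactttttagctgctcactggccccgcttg
PSMB5: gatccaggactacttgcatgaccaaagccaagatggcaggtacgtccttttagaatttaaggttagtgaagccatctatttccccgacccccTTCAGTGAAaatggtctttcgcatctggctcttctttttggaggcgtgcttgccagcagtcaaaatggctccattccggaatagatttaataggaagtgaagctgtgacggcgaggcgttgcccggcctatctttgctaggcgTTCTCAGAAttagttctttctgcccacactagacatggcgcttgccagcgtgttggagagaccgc
In PSMB8 an ISRE match began 4 bases before the start and a GAS match 65 bases before it. Another annotated start of PSMB8 (chr6:32844630-32844929) had neither. These matches did not overlap. In PSMB10 an ISRE match began 21 bases before the start. PSMB9 had neither motif in this window, which says only that these letters are not there. PSMB5 had GAS matches beginning 158 and 15 bases before the start, and its other window (chr14:23035171-23035470) had none. RefSeq windows were found for 43 of the 49 genes, 53 windows in all. An ISRE match was present in 7 of the 53 (PSMA4, PSMB4, PSMB8, PSMB10, PSME1, PSME2 and PSMG4), against 3.57% of all 35116 windows, and a GAS match in 8 of the 53, against 7.66% of all windows. Other letters were searched too and are not marked above. TGACNNNGC was present in 15 of the 53, against 13.35% of all windows, and CCAAT in 22 of the 53, against 34.61%. PSMB9 had both. These matches describe letters and are not evidence of binding.

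Some markers of immune cells also rose after FTO siRNA. Of 18 such markers 12 could be tested, and 7 of them rose, with a median log2 fold change of 1.79 over those tested. Over all genes tested 7.53% were called higher. For PTPRC, CD3D, CD2, NKG7 and TYROBP, all among the 7, every control count was below the filter minimum of 10. HCLS1, also among the 7, had 11, 6 and 7 counts in the controls, so controls 2 and 3 were below that minimum. These markers, HCLS1 included, entered the test only through the FTO siRNA libraries, so their calls and the median rest in part on that selection. The summed level of the 18 was 129 to 191 CPM in the controls and 185 to 216 CPM after FTO siRNA. Most of this sum was LYZ, a lysozyme, and LCP1, an actin-bundling protein, neither of which passed the test. CD79B, MS4A1, LST1 and TYROBP were at 0 in all 3 controls. PTPRC, the leukocyte phosphatase CD45, had 0, 1 and 1 counts in the controls and 20 in each FTO siRNA library. CD3D, a chain of the T cell receptor complex, had 5, 4 and 6 counts in the controls and 68, 33 and 57 counts after FTO siRNA. FTO siRNA 3 was the highest library for 4 of the 12 markers tested (GZMB, CD14, CORO1A and HCLS1), against 29.7% of all genes tested. Of these 4 only HCLS1 was among the 7 that rose, at 0.696, 0.365 and 0.422 CPM in the controls and 1.36, 1.05 and 1.83 CPM after FTO siRNA. Without FTO siRNA 3, 8 of the markers were called higher, against 15.9% of all genes then tested. Of 8 fibroblast markers 6 could be tested and 3 rose, where 7.53% of all genes were called higher. The summed level of the 8 was 99.6 to 189.6 CPM in the controls and 248 to 599 CPM after FTO siRNA, and DCN and THY1 were at 0 in all controls. Much of the fibroblast sum was TAGLN, an actin-binding protein also of smooth muscle, at 34.3, 55.2 and 91.2 CPM in the controls and 463, 283 and 89.7 CPM after FTO siRNA, so that FTO siRNA 3 lay within the control range. The other two that rose were COL1A1 and COL1A2, while COL3A1, LUM and PDGFRB did not pass. In bulk RNA, more RNA from other cells and more RNA per HepG2 cell cannot be told apart, and the part of these cells in the values of PSMB8 and PSMB9 was not tested. PSMB8-AS1, a non-coding gene named as antisense to PSMB8, had no counts in the controls and 4, 3 and 8 counts after FTO siRNA. Whether the counting used strand is not given, so reads from this pair of genes cannot be told apart where they overlap.

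Beside their partners the inducible subunits stayed rare. Exon length here is the union of all annotated exons of a gene, not the length of the transcripts present. It is 2997 bases for PSMB8 against 1765 for PSMB5, and 3072 for PSMB9 against 1448 for PSMB6, and the shares depend on it. Per kilobase of exon, PSMB8 reached 0.114%, 0.127% and 0.115% of the level of PSMB5 in the controls and 0.662%, 0.828% and 1.49% after FTO siRNA. PSMB9 reached 0.0184%, 0% and 0.0171% of the level of PSMB6 in the controls and 0.222%, 0.276% and 0.959% after FTO siRNA. PSMB10 reached 0.475%, 0.476% and 0.400% of the level of PSMB7 in the controls and 0.536%, 0.367% and 1.71% after FTO siRNA, a share that is uncertain because most coding bases of PSMB10, and none of PSMB7, lie inside exons of another gene. The first 2 ratios were higher in every FTO siRNA library than in any control, and the third was not. The log2 ratio of counts, with 0.5 added to each, differed by 2.87 for PSMB8 to PSMB5 and by 4.42 for PSMB9 to PSMB6 (two-sided exact permutation p = 0.10 each, the smallest that 3 against 3 libraries allow). For PSMB10 to PSMB7 the difference was 0.62 (exact permutation p = 0.50), and without FTO siRNA 3 it was -0.02. The ratios were highest in FTO siRNA 3, where the inducible genes were high and the partners low.

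**Figure D2:**
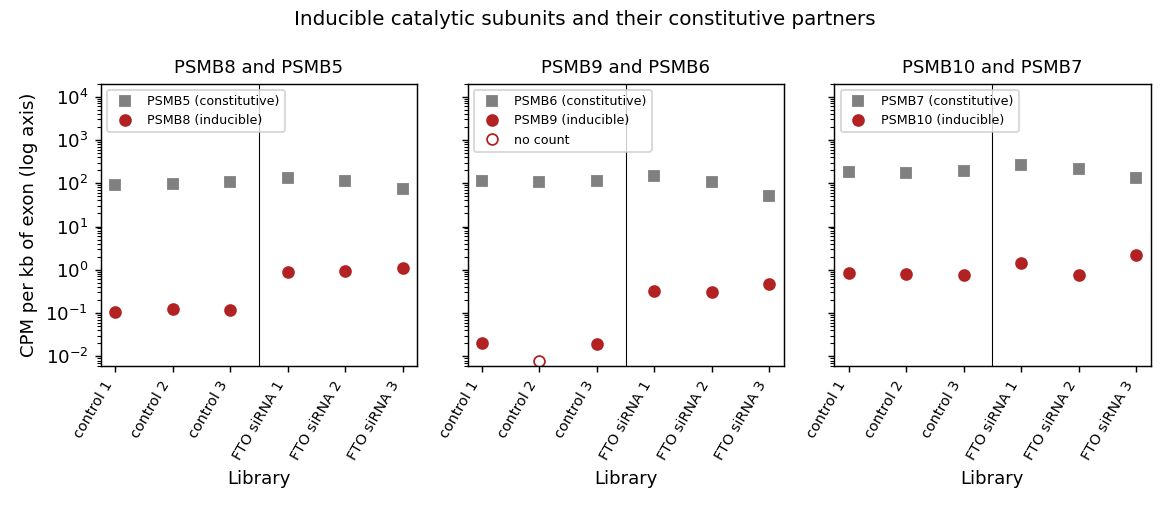
Level in CPM per kilobase of exon (log axis) by library for each inducible subunit (red circles) and its constitutive partner (grey squares), one panel per pair; the open circle marks the library with no PSMB9 count. PSMB8 and PSMB9 step up in all 3 FTO siRNA libraries but stay far below PSMB5 and PSMB6, and PSMB10 is raised in FTO siRNA 1 and 3 and not in 2.

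None of the 14 constitutive subunits of the 20S core passed the test. Their summed level was 2525, 2586 and 2652 CPM in the controls and 3468, 2771 and 1632 CPM after FTO siRNA. FTO siRNA 1 and 2 lay above all controls and FTO siRNA 3 below them, so that the mean difference was -0.05 on the log2 scale (exact permutation p = 1), with an SD of 0.04 among controls and 0.56 among FTO siRNA libraries. Without FTO siRNA 3 the difference was 0.26. In the alpha ring the log2 fold changes ran from -0.23 for PSMA2 to 0.50 for PSMA6. PSMA6 stood at 3.99, 5.29 and 3.62 CPM in the controls and at 8.78, 5.67 and 3.92 CPM after FTO siRNA (log2 fold change 0.50 ± 0.32, edgeR adjusted p = 0.347). The 2 libraries with the highest PSMA6 were FTO siRNA 1 and 2, and FTO siRNA 3 lay within the control range. PSMA2 stood at 7.09, 7.12 and 5.24 CPM in the controls and at 8.04, 4.62 and 3.97 CPM after FTO siRNA, groups that overlap (log2 fold change -0.23 ± 0.30, edgeR adjusted p = 0.662). Without FTO siRNA 3 the log2 fold change was 0.72 ± 0.25 for PSMA6 and -0.06 ± 0.26 for PSMA2, and neither passed.

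In the constitutive beta ring the log2 fold changes ran from -0.14 for PSMB4 to 0.23 for PSMB3. PSMB5, the chymotrypsin-like protease, stood at 163, 169 and 184 CPM in the controls and at 231, 197 and 133 CPM after FTO siRNA. PSMB6, the caspase-like protease, stood at 162, 156 and 166 CPM against 210.2, 158 and 72.6 CPM. PSMB7, the trypsin-like protease, stood at 321, 308 and 335 CPM against 478, 373 and 236 CPM. For all 3 proteases FTO siRNA 1 was the highest library and FTO siRNA 3 the lowest. PSMB4, a structural subunit, stood at 269.7, 288 and 281 CPM in the controls and at 373, 295 and 96.0 CPM after FTO siRNA, so that FTO siRNA 3 held 34.3% of the control mean. PSMB3, also without a protease site, stood at 158, 155 and 167 CPM against 268, 196 and 97.3 CPM. Without FTO siRNA 3, PSMB3 (log2 fold change 0.51 ± 0.13, edgeR adjusted p = 0.0189) and PSMB7 (0.38 ± 0.12, adjusted p = 0.0434) were called higher.

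Nor did any of the 17 subunits of the 19S particle pass. Their summed level was 4190.4, 4083 and 4351 CPM in the controls and 5105, 4414 and 2429.8 CPM after FTO siRNA, a mean log2 difference of -0.15 (exact permutation p = 1) that became 0.17 without FTO siRNA 3. In the base, which holds the ATPase ring, the log2 fold changes ran from -0.48 for PSMD1 to 0.07 for PSMC4. PSMD1, a scaffold subunit that binds ubiquitin receptors, stood at 524, 498 and 509 CPM in the controls and at 490.4, 442 and 165 CPM after FTO siRNA. Every FTO siRNA library was below every control, and FTO siRNA 3, with 32.2% of the control mean, was far below the other two (log2 fold change -0.48 ± 0.35, edgeR adjusted p = 0.408, and -0.16 ± 0.11 without FTO siRNA 3). PSMC4, an ATPase, stood at 241, 241 and 271 CPM in the controls and at 348, 296 and 148 CPM after FTO siRNA. In the lid with the ubiquitin receptor PSMD4 the log2 fold changes ran from -0.17 for PSMD11 to 0.31 for PSMD8. PSMD8 stood at 322, 304 and 336 CPM in the controls and at 495, 415 and 283 CPM after FTO siRNA, and it was called higher without FTO siRNA 3 (log2 fold change 0.48 ± 0.11, edgeR adjusted p = 0.0133). PSMD11, a lid scaffold subunit, stood at 295, 268 and 293 CPM against 298, 276 and 185 CPM. The deubiquitinase of the lid, PSMD14, stood at 241, 243 and 247 CPM against 286, 228 and 191 CPM. Its partner PSMD7 was the exception, at 119, 119 and 118 CPM in the controls and 129, 109 and 143 CPM after FTO siRNA, with FTO siRNA 3 the highest of all.

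The spread among FTO siRNA libraries was the main feature of the constitutive genes. FTO siRNA 3 was below all 5 other libraries for 39 of the 47 genes tested (83.0%), against 28.2% of all genes tested, and above all 5 for 4 of them (PSMB8, PSMB9, PSMB10 and PSMD7), against 29.7%. In the core this held for 13 of 14 genes, PSMA6 being the exception, and in the 19S particle for 16 of 17. FTO siRNA 1 and 2 were both above every control for 24 of the 47 genes, against 31.4% of all genes, and both below every control for 3, against 27.7%. The median log2 difference of FTO siRNA 3 from the mean of FTO siRNA 1 and 2 was -0.67 over the members, -1.05 in the beta ring, -1.14 in the 19S base and 0.02 over all genes. The median coefficient of variation of the members was 4.50% among controls and 30.4% among FTO siRNA libraries, against 9.73% and 22.5% over all genes. FTO siRNA 3 also had the lowest FTO level, at 5.20 CPM, and the highest hepatocyte marker sum of its group, at 28202 CPM against 19179 and 15858 CPM. What sets this library apart was not tested. Without it 6 of the 47 members were called higher, namely PSMB8, PSMB9, PSMB3, PSMB7, PSMD8 and PSMG2, and 0 lower. This is 12.8% of the members, against 30% of the 15290 genes then tested (15.9% higher, 14.1% lower), and the median log2 fold change of the members became 0.16.

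**Figure D3:**
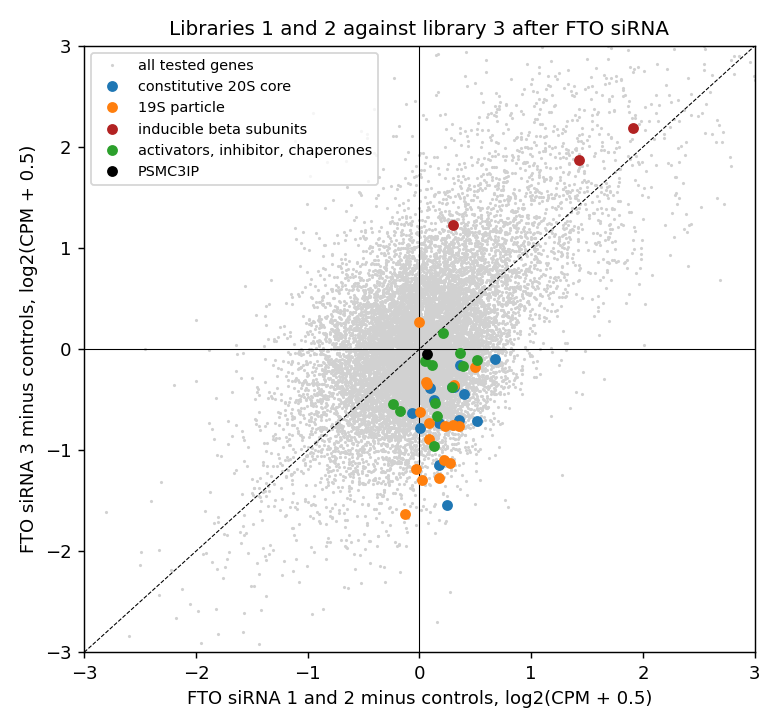
Each point is a gene: the mean of FTO siRNA 1 and 2 minus the mean of the controls (horizontal) against FTO siRNA 3 minus the mean of the controls (vertical), both in log2(CPM + 0.5), with grey for all tested genes. Genes beyond the axes are not drawn, and the dashed line marks equality. Core and 19S genes except PSMD7 sit below the dashed line, mostly right of 0 and below 0, and the 3 inducible subunits sit above it.

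Activators open the gate of the core in place of the 19S particle, and none of the 4 passed. PSME1 and PSME2, the interferon-inducible PA28 pair that works with the immunoproteasome, did not show the pattern of PSMB8. PSME1 stood at 59.3, 70.4 and 53.2 CPM in the controls and at 83.0, 59.1 and 67.6 CPM after FTO siRNA (log2 fold change 0.20 ± 0.18, edgeR adjusted p = 0.503). PSME2 stood at 95.1, 116 and 96.3 CPM against 159, 112 and 91.0 CPM (log2 fold change 0.24 ± 0.21, edgeR adjusted p = 0.505, and 0.38 ± 0.15 with adjusted p = 0.0899 without FTO siRNA 3). Both pairs of groups overlapped. PSME4, the PA200 activator, stood at 235, 225 and 217 CPM in the controls and at 178, 205 and 154 CPM after FTO siRNA. All 3 of its FTO siRNA libraries were below all controls, yet the difference did not pass (log2 fold change -0.33 ± 0.15, edgeR adjusted p = 0.193). PSMF1, the PI31 regulator that inhibits the core in vitro, stood at 182, 188 and 201 CPM against 226, 197 and 119 CPM.

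Chaperones build the particle and leave it before it works, and 0 of the 7 passed. Among those of the 19S base, PSMD5 stood at 149.6, 157 and 147 CPM in the controls and at 133, 135 and 98.7 CPM after FTO siRNA, with no overlap (log2 fold change -0.31 ± 0.16, edgeR adjusted p = 0.243, and -0.20 ± 0.10 without FTO siRNA 3). PSMD9 had the highest log2 fold change of the 3, at 0.11 ± 0.25. Among the chaperones of the core, PSMG2 stood at 55.2, 54.6 and 52.4 CPM in the controls and at 88.5, 67.6 and 49.97 CPM after FTO siRNA. FTO siRNA 3 alone was below the controls for PSMG2, which was called higher without it (log2 fold change 0.50 ± 0.13, edgeR adjusted p = 0.0171). Its partner PSMG1 stood at 53.3, 50.6 and 55.5 CPM against 59.6, 57.0 and 27.0 CPM. PSMC3IP, the gene that matched by its symbol and is no subunit, stood at 11.4, 12.6 and 15.9 CPM against 16.3, 11.8 and 12.7 CPM. The testis subunit PSMA8 and the thymus subunit PSMB11 were left out by the filter on low counts. PSMB11 had no count in any library and PSMA8 had 1, in FTO siRNA 2, where 3 counts, the limit that a count of 0 allows, correspond to 0.153 to 0.190 CPM.

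Subunits of one particle are built in equal numbers, but their counts per kilobase of exon were not equal. The length is again the union of all annotated exons, for example 1179 bases for PSMB3 and 6506 for PSMA6. A long union lowers the value where the transcripts present are shorter, so part of the differences may come from it. Per kilobase of exon, the control means of the constitutive beta ring lay between 76.2 CPM for PSMB2 and 179.8 CPM for PSMB7, while those of the alpha ring lay between 0.661 CPM for PSMA6 and 189 CPM for PSMA7. The low alpha subunits share a feature of the annotation. In GENCODE 29, 70.4% of the coding bases of PSMA6, 97.1% of PSMA2 and 88.6% of PSMA1 lie inside exons of another protein-coding gene on the same strand. These 3 stood at 0.661, 1.21 and 4.72 CPM per kilobase, against a median of 73.2 and a minimum of 6.48 (PSMD6) over the other 28 core and 19S genes. The covering genes held 0 to 2 counts in every library. PSMB10 (58.3%) and the chaperone PSMD9 (58.7%) were covered in the same way, at 0.808 and 0.779 CPM per kilobase, and the gene over PSMB10 held 28, 30 and 31 counts in the controls and 24, 22 and 28 after FTO siRNA. PSMG4, at 0.813 CPM per kilobase, was low without such overlap, over a union of exons of 10418 bases. How the counting treated reads that match more than one gene is not given, so the levels of the covered genes are uncertain and are not comparable with those of the others. PSMC1 and PSMD4, of whose 50-base words 29.4% and 22.8% also occur in other genes, are uncertain for the same reason.

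**Figure D4:**
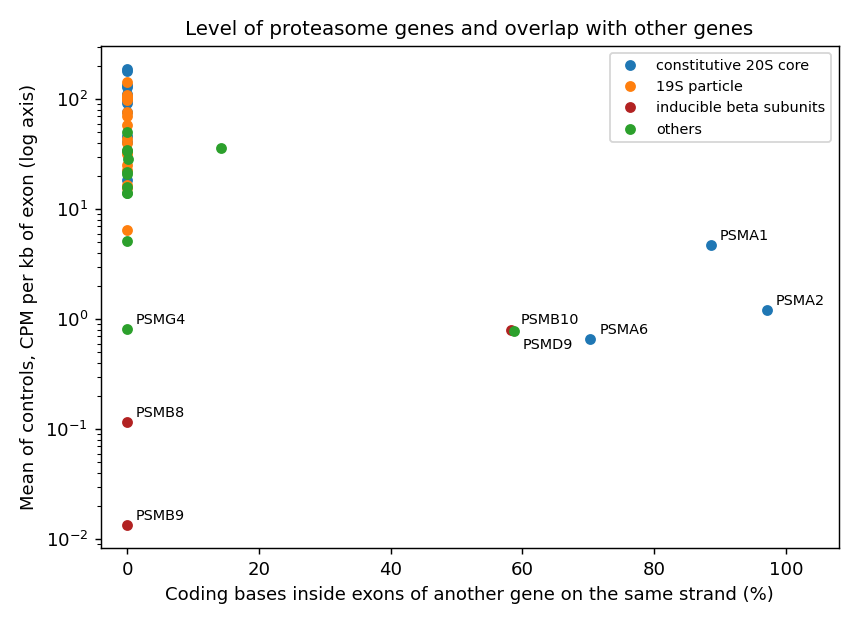
Each point is a proteasome gene with counts in the controls: the share of its coding bases inside exons of another gene on the same strand (horizontal, %) against its mean control level in CPM per kilobase of exon (vertical, log axis). The 5 genes at 50% or more all lie below 5 CPM per kilobase, and of those at 0% PSMB8, PSMB9 and PSMG4 lie lowest.

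Genes around the proteasome were described from 5 lists, whose counts stand against 7.53% of all genes called higher and 3.83% lower (15.9% and 14.1% without FTO siRNA 3). The subunits and the assembly factor with other symbols, ADRM1, SEM1 and POMP, had 0 of 3 called, and all 3 had FTO siRNA 1 as the highest library. Without FTO siRNA 3, ADRM1 was called higher. Proteasome-associated proteins had 0 of 10 called, with a median log2 fold change of -0.08, and without FTO siRNA 3 PITHD1 was called higher and ECPAS lower. NFE2L1 is the transcription factor that raises proteasome genes when the proteasome is inhibited, and its list had 2 of 11 called higher and 1 lower, with and without FTO siRNA 3. NFE2L1 itself stood at 234, 244 and 248 CPM in the controls and at 226, 264 and 382 CPM after FTO siRNA, highest in FTO siRNA 3. MAFF, a small Maf partner, rose from 15.7, 19.95 and 22.6 CPM to 61.9, 60.9 and 129 CPM (log2 fold change 2.11 ± 0.31, edgeR adjusted p = 0.00634). MAFK, another partner, rose from 15.1, 15.9 and 26.2 CPM to 35.7, 40.8 and 89.5 CPM (1.54 ± 0.37, edgeR adjusted p = 0.0340, and 0.98 with adjusted p = 0.0103 without FTO siRNA 3). DDI2, the protease that activates NFE2L1, fell from 129.8, 118 and 101 CPM to 49.2, 68.4 and 63.3 CPM (-0.95 ± 0.17, edgeR adjusted p = 0.0124). For these 3 genes the groups did not overlap, as for 36.6% of all genes tested. The MAFK call was lost without any one control or FTO siRNA 2 (adjusted p = 0.0520 to 0.153), and the DDI2 call without control 1 or 2 (adjusted p = 0.0736 and 0.0649).

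Of the ubiquitin genes, activating enzymes and shuttles 1 of 12 tested was called: SQSTM1, a receptor for ubiquitylated cargo, rose from 645, 575 and 671 CPM to 1030.0, 1008 and 938 CPM (log2 fold change 0.66 ± 0.16, edgeR adjusted p = 0.0375). Without FTO siRNA 3, 4 of that list were called higher and 1 lower. Of the genes of interferon control and peptide loading 3 of 10 tested were called, all higher, with a list median of 0.75, and without FTO siRNA 3 the counts were 4 higher and 1 lower. IRF1, a transcription factor of interferon responses, rose from 11.6, 13.6 and 12.5 CPM to 27.6, 21.9 and 44.3 CPM (1.31 ± 0.26, edgeR adjusted p = 0.0170). TAP1, the peptide transporter subunit encoded beside PSMB8 and PSMB9, rose from 0.886, 1.58 and 1.21 CPM to 6.19, 3.82 and 9.98 CPM (2.44 ± 0.41, edgeR adjusted p = 0.0102). TAPBP, which holds class I molecules at the transporter, rose from 68.8, 88.1 and 70.0 CPM to 131, 104 and 130.1 CPM (0.69 ± 0.16, edgeR adjusted p = 0.0326). IRF1 and TAP1, like PSMB8 and PSMB9, were highest in FTO siRNA 3, as were 29.7% of all genes tested. Calls were lost without control 1, 2 or 3 for IRF1 (adjusted p = 0.0687 to 0.0959), without any one library but FTO siRNA 3 for SQSTM1 (0.0659 to 0.212), without control 1 for TAP1 (0.0616), and without any control or FTO siRNA 1 for TAPBP (0.0750 to 0.176). Some immune cell markers also rose after FTO siRNA. The part of immune cells in the values of the interferon and peptide loading genes was not tested.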

How the data were processed

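Total RNA of 6 HepG2 libraries was sequenced, 3 per group, with groups taken from the labels. The authors deposited raw counts per Ensembl gene; per the submitters' processing notes, the tools include TopHat2 2.0.11 and HTSeq and the builds are hg19 and GRCh37. The sources used here do not give the counting settings. Of 60483 identifiers 56753 matched GENCODE 29, used for symbols, exon lengths and overlaps. The build of GENCODE 29 differs from those named in the notes, so no GENCODE coordinates of counted genes are printed. The only coordinates given are those of the RefSeq start windows on GRCh38.p14.

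Counts were filtered (filterByExpr), TMM-scaled and tested on group with edgeR 4.0.16 (glmQLFit, glmQLFTest; R 4.3.3), two-sided, at an adjusted p of 0.05 over 15025 genes. A standard error is the log2 fold change over the square root of F. Sums and ratios were tested by exact permutation. Alternatives were other scaling factors and filters, DESeq2 1.42.0, limma-voom (limma 3.58.1), a replicate block and each library left out. All pairs of libraries differed by more than sampling noise. Total counts, 15713279 to 18390953, limit low genes most.

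Members and lists were chosen with earlier results of these data known, and the promoter motifs after the values were seen. Named genes are FTO, the inducible subunits and their partners, PSME1, PSME2, members past the threshold, the highest and lowest fold change in each class, members the filter left out, and up to 4 called genes per list by smallest p. PSMD7, PSMD14, NFE2L1, the marker genes, the list genes named for a call without FTO siRNA 3, and the members that mark overlaps, shared words and levels were added after their values were seen.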

Additional observations from a re-analysis of the deposited data

How the results depend on the processing

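PSMB8 was called higher in every alternative run (log2 fold change 2.89 to 3.11, adjusted p 1.07e-07 to 0.0265), and PSMB9 in every alternative in which it was tested (4.05 to 4.91, adjusted p 0.000917 to 0.0332). These runs reuse the same libraries, and each filter that kept PSMB8 or PSMB9 did so only through the FTO siRNA libraries. Their agreement is therefore not independent support. A minimum of 1 CPM in 3 libraries left PSMB9 untested, so that 1 member was higher. Leaving out one library in turn gave 2 to 6 members higher and 0 to 0 lower, with 236 to 2430 of all genes higher and 94 to 2152 lower; the highest values are those without FTO siRNA 3. DESeq2 called 1029 of all genes lower. Same-numbered libraries did not deviate together (correlations -0.138, -0.0643 and -0.248), so no pairing by number was visible. With 3 libraries per group this cannot exclude a paired design. With the replicate block 736 of all genes were higher and 305 lower, with 2 members higher and 0 lower. The block ended the calls of SQSTM1 (adjusted p = 0.134) and TAPBP (0.0915), and the fit with no filter that of TAPBP (0.0599). Leaving out one library in turn, log2 differences ranged from -0.28 to 0.26 for the summed core, -0.36 to 0.17 for the 19S sum, 2.53 to 3.12 for PSMB8 to PSMB5, 3.77 to 4.82 for PSMB9 to PSMB6 and -0.023 to 1.08 for PSMB10 to PSMB7. Log2 fold changes ranged from -0.14 to 0.51 for PSMB3, -0.53 to 0.23 for PSMB4, -0.074 to 0.29 for PSMB5, -0.50 to 0.16 for PSMB6, -0.090 to 0.38 for PSMB7, -0.13 to 0.15 for PSMC3IP, -0.19 to 0.33 for PSMC4, -0.14 to 0.30 for PSMD9, -0.024 to 0.38 for PSME2, -0.28 to 0.13 for PSMF1 and -0.35 to 0.11 for PSMG1, so the direction of these rests on single libraries. PSMC3IP was at -0.019 with no filter, and PSMC4 at -0.0090 by limma-voom and -0.0087 with the block. The causes were not tested. Leaving out members with 1% or more shared words or with 25% or more covered coding bases, both added after seeing the data, kept 2 higher and 0 lower. Depth limits PSMB9, PSMA8 and PSMB11.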

Other observations

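The 37 non-coding genes with proteasome symbols, mostly pseudogenes, were not members. PSMC1P1, a processed pseudogene of the ATPase gene PSMC1, had 20, 22 and 21 counts in the controls and 10, 12 and 6 counts after FTO siRNA, with no overlap (edgeR adjusted p = 0.0708). PSME2P2, a processed pseudogene of the activator gene PSME2, had 3, 0 and 0 counts in the controls and 21, 8 and 10 counts after FTO siRNA, too few to be tested. PSMG3-AS1, a non-coding RNA gene named after a core chaperone gene, had 60, 97 and 64 counts in the controls and 66, 74 and 308 counts after FTO siRNA, so that only FTO siRNA 3 was high (edgeR adjusted p = 0.311). Whether the counting told reads of a pseudogene from those of its parent is not given.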
